A study of Mus musculus with 12 samples.

Results

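Small nucleolar RNA (snoRNA) host genes and the growth-arrest transcript Gas5 were followed on Illumina arrays of mouse bone marrow cells. The genes were taken from a list of 7 names, 1110038B12Rik, Gas5, Snhg1, Snhg3, Snhg6, Snhg8 and Snhg12, all annotated as long noncoding RNAs. They were selected on measured values of these same arrays, seen in earlier results, and the list names neither the comparison nor a threshold, so their levels are a description and the tests of these genes are given only as the size of a difference against the spread of the arrays. A probe carried the name of 4 of the 7 genes, 3 of them as written and Snhg12 under its older symbol 2310005L22Rik, and each of the 4 had 1 probe. Of these, 1110038B12Rik, Snhg12 and Gas5 passed the detection filter (3 or more of 12 arrays above background, each at a detection p under 0.05) and were tested among 11472 genes, out of 20289 genes with a named probe. Snhg1 was above background on 0 of 12 arrays. Snhg3, Snhg6 and Snhg8 were not analysed here, as no probe carried their names.

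The arrays held 4 groups of 3 samples, named here by the letters of their titles. The SCF group was CD117+ cells treated with stem cell factor (SCF) at 3 µg/ml for 48 h, the U group was CD117+ cells without SCF, the C group was a further set of CD117+ cells without SCF, and the A group was CD117- cells. All came from bone marrow of 3-month-old mice, which carried a β-globin/GFP fusion transgene, and the RNA was extracted from a fixed number of cells per sample. CD117 is the receptor tyrosine kinase c-Kit, which marks haematopoietic stem and progenitor cells, and SCF is its ligand. Each replicate was stated to be a mouse of its own, but which fractions of one mouse ended up in which groups is not known. The letter U is not spelled out in the labels, and whether the U cells were cultured like the SCF cells is not stated. The deposited processed values of SCF and U arrays were normalized as one set and those of C and A arrays as another, so the set and any difference of U or SCF from C cannot be told apart. The comparisons overlap in their arrays: C against A, U against C and SCF against C share the C arrays, SCF against U shares its U and its SCF arrays with one comparison each. Only C against A and SCF against U lie within a set.

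snoRNAs guide the methylation and pseudouridylation of ribosomal RNA. In mammals most are cut out of the introns of a host gene, and for several hosts the spliced exons encode no known protein and serve mainly to carry the snoRNAs. Many hosts start transcription inside a run of pyrimidines, the terminal oligopyrimidine (TOP) motif shared with ribosomal protein mRNAs, whose translation is controlled by mTOR. The spliced RNA of such hosts can enter translation and is then removed by nonsense-mediated decay, so that its level depends on translation as well as on transcription. Gas5 was first isolated as a transcript that accumulates in growth-arrested mouse fibroblasts, and its human counterpart can bind the glucocorticoid receptor.

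The RefSeq gene table (GRCm38.p6) placed 2 snoRNA genes inside 1110038B12Rik on chromosome 17, among them Snord52, and 8 inside Gas5 on chromosome 1, among them Snord47. It placed 8 inside Snhg1 on chromosome 19, 2 inside Snhg3 and 4 inside Snhg12 on chromosome 4, 1 inside Snhg6 on chromosome 1 and 1 inside Snhg8 on chromosome 3. The 4 of Snhg12 were Snora16a, Snora44, Snora61 and Snord99. Snora RNAs guide pseudouridylation and Snord RNAs guide methylation, so Snhg12 carries both kinds. Gas5 overlaps Zbtb37, and the strand that its probe reads was not used here, so signal of the overlapping gene cannot be told apart from that of Gas5.

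The start of each host is shown because a TOP motif would lie there. The 4 genes with a probe are given from 20 bases before to 30 bases from the annotated start, 5′ to 3′ (RefSeq, GRCm38.p6), with a run of at least 5 pyrimidines at the start in capitals. A run was counted where it covers the first base or begins by the third. The stretches are chr17:34952439-34952488 (minus strand) for 1110038B12Rik, chr4:132308658-132308707 (plus strand) for Snhg12, chr1:161035146-161035195 (plus strand) for Gas5, chr1:161034581-161034630 (plus strand) for the upstream start of Gas5 and chr19:8723467-8723516 (plus strand) for Snhg1.
1110038B12Rik: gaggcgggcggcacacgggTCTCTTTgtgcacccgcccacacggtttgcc
Snhg12: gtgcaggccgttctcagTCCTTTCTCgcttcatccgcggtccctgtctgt
Gas5: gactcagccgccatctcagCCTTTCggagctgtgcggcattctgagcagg
Gas5 upstream start: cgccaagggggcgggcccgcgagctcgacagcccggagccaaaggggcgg
Snhg1: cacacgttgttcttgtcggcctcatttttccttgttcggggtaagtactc

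The runs were 7 bases in 1110038B12Rik, 9 in Snhg12 and 6 in Gas5. The upstream start of Gas5 and the start of Snhg1 had none by this rule. Snhg8 had a run of 7 and Snhg3 a run of 5, and Snhg6 is named only. In all, 6 of 8 windows, from 5 of 6 genes, held such a run, and 2 of the 6 are starts of 1110038B12Rik that share 1 run. Such a run was in 15.6% of 32851 promoter windows and 35.2% of 91 windows of ribosomal protein genes. Over the 300 bases from 250 before to 50 after the start, on both strands, CACGTG was in 0 of the 6 genes (7.15% of all windows), TGACGTCA in Gas5 alone (1.79%), CCGGAAGT in Snhg3 alone (3.89%) and TATAAA in 1110038B12Rik, Snhg1, Snhg3 and Snhg8 (13.6%). None of these 4 motifs contains another. The matches describe the letters in these windows.

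The median scanner intensity lay between 87.03 and 109.9 and the number of probes above background between 16210 and 18248 over the 12 arrays, with 3 arrays per group as the limit of precision. Levels are given as log2 intensity after background correction and quantile normalization over all arrays, on which the dimmest signals lie a little above 4. A level of one probe is not comparable with that of another. Kit, the gene of CD117, averaged 11.50 ± 0.09 in C and 9.34 ± 0.35 in A on its brightest probe (SD, n = 3 each), in the direction of the labels. That probe averaged 10.20 ± 0.17 in U and 10.69 ± 0.07 in SCF, 2.45-fold and 1.75-fold lower than in C. A dimmer Kit probe averaged 6.44 ± 1.06 in C, 5.27 ± 0.21 in A, 4.97 ± 0.06 in SCF and 4.58 ± 0.23 in U. It was above background on 1 of 3 U arrays. On this probe the U and SCF means lay below that of A, unlike on the brightest probe.

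1110038B12Rik was brightest in C, and within the U and SCF set it was brighter with SCF. Its level was 9.11, 9.28 and 9.22 on the SCF arrays, 7.95, 7.59 and 8.47 on the U arrays, 11.16, 11.10 and 10.98 on the C arrays and 9.33, 9.42 and 9.16 on the A arrays. All C arrays stood above all others and all U arrays below all others, while the SCF and A arrays overlapped. The order of the means was thus C, A, SCF, U, and the neighbours SCF and A, 9.20 ± 0.09 and 9.30 ± 0.13 (SD, n = 3 each), did not differ beyond their spread. Before normalization the scanner read 728.9 to 959.0 on SCF, 299.5 to 486.0 on U, 1863 to 2331 on C and 410.3 to 487.8 on A arrays. The unprocessed SCF readings were therefore above those of A. They stayed above them when divided by the median of each array (7.05 to 8.72 against 4.71 to 5.23). The unprocessed U readings overlapped those of A. The overlap of SCF with A and the place of U below A were thus seen after normalization over all arrays, not in the scanner readings.

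Snhg12 split the 4 groups by set. Its level was 5.14, 5.31 and 5.07 on the SCF arrays, 4.80, 5.31 and 5.28 on the U arrays, 10.00, 10.13 and 10.19 on the C arrays and 8.97, 8.68 and 8.48 on the A arrays. The SCF and U arrays were close to the dimmest signals but above background on all 6, and the C and A arrays stood far above them. The order of the means was C, A, SCF, U, and only SCF and U overlapped. On the scanner scale Snhg12 read 122.5 to 133.2 on SCF, 108.5 to 125.1 on U, 1114 to 1178 on C and 294.6 to 337.2 on A arrays.

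Gas5 ran the other way between the sets and was dim throughout. Its level was 5.42, 5.75 and 6.22 on the SCF arrays, 5.15, 4.69 and 5.60 on the U arrays, 4.47, 4.33 and 4.36 on the C arrays and 4.32, 4.35 and 4.25 on the A arrays. It was above background on 3 of 3 SCF and 3 of 3 U arrays, and on 0 of 3 C and 0 of 3 A arrays. The SCF and U arrays overlapped, and both lay above all C and A arrays. In scanner units it read 131.7 to 197.7 on SCF, 107.3 to 136.2 on U, 93.9 to 97.9 on C and 84.2 to 87.1 on A arrays, and the C and A values lay near the median of all probes on their arrays.

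Snhg1 gave 4.20 to 4.43 over the 12 arrays, with detection p between 0.181 and 0.958. No difference between groups can be read from a probe that is not above background anywhere. Its accession on the platform is among the RefSeq transcripts of Snhg1, whereas those of the Gas5 and 1110038B12Rik probes are not among the RefSeq transcripts of their genes, and the platform table gave none for the Snhg12 probe. Which exon or intron each probe reads is therefore not known here.

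**Figure D1:**
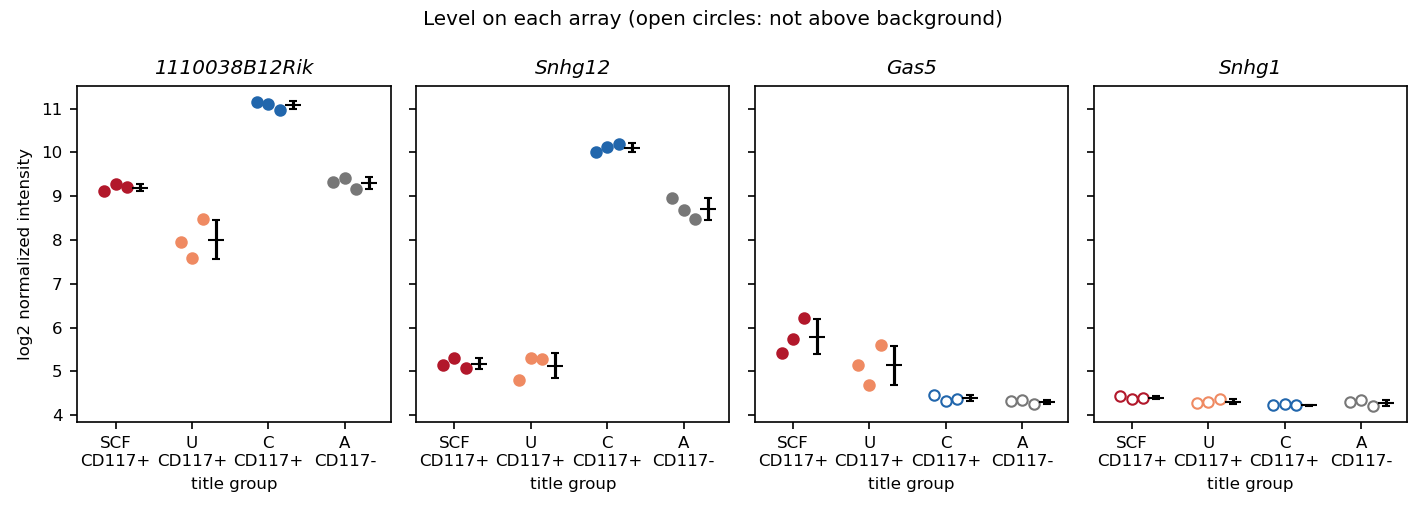
Log2 normalized intensity (vertical axis) of the 4 genes with a probe on each of the 12 arrays, by title group (SCF, U, C, A), with the mean and SD of 3 arrays as a black bar beside the points. 1110038B12Rik is highest on the C arrays (10.98 to 11.16), Snhg12 lies between 4.80 and 5.31 on the U and SCF arrays, and the Gas5 circles are open on the C and A arrays, where it was not above background. Heights are comparable within a panel only.

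CD117+ cells were first compared with CD117- cells. 1110038B12Rik and Snhg12 were higher in C than in A, 1110038B12Rik by 1.78 on the log2 scale (SE 0.17, 95% interval 1.41 to 2.14, adjusted p = 2.68e-07) and Snhg12 by 1.40 (SE 0.18, 1.02 to 1.77, adjusted p = 5.08e-06). These are 3.42-fold and 2.64-fold, and 156 and 400 of the 11472 genes increased more. Gas5 was below background in both, at 4.39 ± 0.07 in C and 4.30 ± 0.05 in A (SD, n = 3 each), and no fold is given. P-values are from limma's moderated test with Benjamini-Hochberg adjustment over all genes, and 2 of the 3 tested genes were called at an adjusted p under 0.05, where 51.0% of all genes were called, 29.6% as higher and 21.3% as lower. With each array scaled to its median in place of quantile normalization, the Snhg12 difference was 2.14, but then the median of all genes was 0.49 as well, against 0.07 in the fit reported here.

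SCF-treated cells were then compared with the U cells. 1110038B12Rik was higher with SCF by 1.20 on the log2 scale (SE 0.17, 95% interval 0.83 to 1.57, adjusted p = 9.15e-05), 2.29-fold, and 89 genes increased more. Snhg12 differed by 0.04, with an interval of -0.33 to 0.42 (adjusted p = 0.885). Snhg12 was close to background on all 6 of these arrays, where a change of the RNA shows little in the signal. Gas5 differed by 0.65 (SE 0.21, 0.21 to 1.09, adjusted p = 0.0266), 1.57-fold, and 853 genes increased more, but its arrays overlapped. In all, 2 of the 3 genes were called, where 27.8% of all genes were called, 14.1% as higher and 13.7% as lower.

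The Gas5 call between SCF and U rested on single arrays. Without U replicate 2 the difference was 0.42 (adjusted p = 0.157), without SCF replicate 3 it was 0.44 (adjusted p = 0.151), without U replicate 1 it was 0.65 (adjusted p = 0.0669) and without SCF replicate 2 it was 0.67 (adjusted p = 0.0525). Its size also moved with the treatment of dim probes: it was 0.23 without background correction and 0.36 with an offset of 50 in place of 16, with adjusted p = 0.0287 and 0.0244.

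The U and C cells are both CD117+ without SCF. Snhg12 and 1110038B12Rik had their largest difference of the 4 comparisons between them. Snhg12 was lower in U than in C by 31.5-fold (log2 difference -4.98, SE 0.18, adjusted p = 1.04e-12), and 9 of 11472 genes fell more. The U arrays were close to background for this probe, and the size of the difference moved with the background correction. It was -3.33 without background correction and -4.04 with an offset of 50 (adjusted p = 1.05e-12 and 1.84e-12). 1110038B12Rik was lower by 8.41-fold (-3.07, SE 0.17, adjusted p = 2.85e-10), and 65 genes fell more. Gas5 was at least 1.41-fold higher in U, a bound set by the dimmest signals above background on the C arrays (fitted log2 difference 0.76, SE 0.21, adjusted p = 0.00485). All 3 genes were called, 2 lower and 1 higher, where 57.1% of all genes were called, 28.5% in each direction. Gas5 passed the detection filter through the U and SCF arrays alone, so its higher level there than in C is tied to that filter. Its call is therefore no independent support. Without background correction the Gas5 difference was 0.24 and with an offset of 50 it was 0.35, and both kept an adjusted p under the threshold (0.0101 and 0.0154).

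Against the same C arrays, the SCF cells gave a smaller difference for 1110038B12Rik, 3.67-fold lower (-1.88, SE 0.17, adjusted p = 1.48e-07), and nearly the same one for Snhg12, 30.6-fold lower (-4.93, SE 0.18, adjusted p = 1.03e-12), with 11 genes falling more. The Snhg12 value was -3.32 without background correction and -4.02 with an offset of 50. Gas5 was at least 2.21-fold higher in SCF (fitted log2 difference 1.41, SE 0.21, adjusted p = 2.88e-05). Without background correction this was 0.47. All 3 genes were called, where 46.5% of all genes were called, 24.6% as higher and 21.9% as lower. The Gas5 call is tied to the detection filter here as well. Counting arrays alone, 65.7% of all genes had no overlap between U and C arrays and 58.9% none between SCF and C arrays, beside 57.2% between C and A arrays and 42.0% between SCF and U arrays.

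The 3 tested genes did not share one profile. The root mean square difference of their mean-centred log2 levels over the 12 arrays was 1.50 between 1110038B12Rik and Gas5, 1.42 between 1110038B12Rik and Snhg12 and 2.76 between Gas5 and Snhg12. Over all other genes the median of this difference was 1.16 for 1110038B12Rik, 0.73 for Gas5 and 2.22 for Snhg12, so only Snhg12 had one of the others, 1110038B12Rik, nearer than this median.

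The genes closest to 1110038B12Rik were Mir17hg, the host transcript of the Mir17 microRNA cluster (0.23), Snhg5, a further noncoding snoRNA host (0.23), and Mns1, which encodes a structural protein of meiotic nuclei and sperm flagella (0.27). Mir17hg averaged 8.02 in SCF, 6.75 in U, 9.75 in C and 8.30 in A, and Snhg5 averaged 8.51 in SCF, 7.41 in U, 10.07 in C and 8.73 in A. Both thus had their highest level in C, their lowest in U, and SCF and A between them. On single arrays Snhg5 gave 8.50, 8.50 and 8.52 with SCF, against 7.48, 7.23 and 7.54 in U. In C it gave 9.99, 10.05 and 10.18, against 8.86, 8.75 and 8.59 in A.

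The genes closest to Snhg12 were Ighv7-3, an immunoglobulin heavy chain variable segment (0.32), Col5a1, a collagen chain (0.40), and Myh10, a non-muscle myosin heavy chain (0.44). None of the 3 is a snoRNA host. Ighv7-3 averaged 4.52 in SCF, 5.06 in U, 9.59 in C and 8.30 in A, and Myh10 averaged 4.54 in SCF, 4.48 in U, 8.51 in C and 7.60 in A, so that these 2 were near the dimmest signals in the SCF and U set. Col5a1 averaged 5.96 in SCF, 4.94 in U, 10.29 in C and 9.15 in A. The genes closest to Gas5 were Plscr2, a phospholipid scramblase (0.16), Tdpoz1, a gene of the TD and POZ domain family (0.17), and Hscb, a co-chaperone of mitochondrial iron-sulphur cluster assembly (0.17). Plscr2 averaged 6.07 in SCF, 5.53 in U, 4.62 in C and 4.40 in A. For dim probes such as Gas5 and Plscr2 a small difference is partly a matter of their narrow range.

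**Figure D2:**
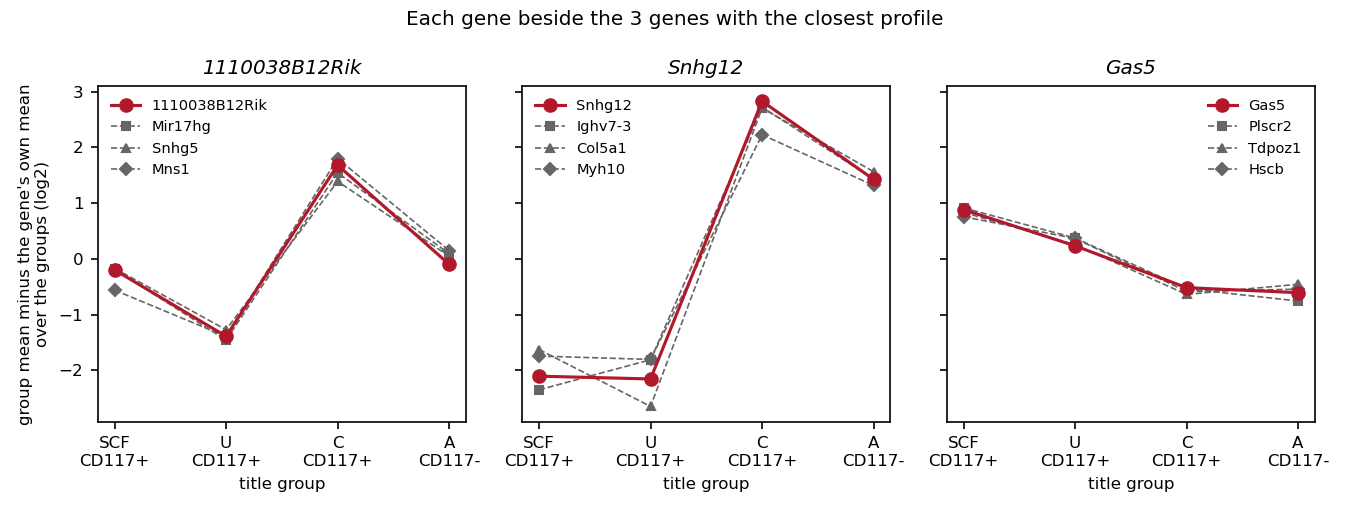
Mean level of each tested gene in the SCF, U, C and A groups minus its own mean over the groups (log2, vertical axis), in red, beside the 3 genes of 11472 with the smallest root mean square difference over the 12 arrays, in grey. 1110038B12Rik and Mir17hg differ by 0.23, Snhg12 and Ighv7-3 by 0.32 and Gas5 and Plscr2 by 0.16, and the lines join the means of one gene only to guide the eye.

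Other noncoding snoRNA hosts were taken from a list of 18, of which 9 were tested. In C against A, 5 were higher and 2 lower, with a list median of 1.33 against 0.07 over all genes. Dancr, a noncoding RNA that holds back differentiation in human epidermal progenitors, was higher by 1.70 (adjusted p = 1.07e-06) but above background on 1 of 3 A arrays. Snhg17 was higher by 1.63 (adjusted p = 7.31e-08) and Snhg16 by 1.60 (adjusted p = 2.16e-07). Snhg5 and Zfas1 were higher by 1.34 and 1.33 in C. Snhg11 and Snhg18 were lower in C, Snhg18 by 1.37-fold. Snhg11 was above background on 0 of 3 C arrays, and was lower by 1.34-fold with these set at their dimmest signals above background. With median scaling 6 of the 9 were called higher and 0 lower, so both of the lower calls were lost under that scaling.

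In SCF against U, 4 of these 9 hosts were higher and 0 lower, with a list median of 0.36 against 0.02 over all genes. Snhg5 was higher by 1.09 (adjusted p = 2.06e-05), Zfas1 by 0.96 (adjusted p = 0.000435), Snhg16 by 0.63 (adjusted p = 0.00524) and Snhg17 by 0.55 (adjusted p = 0.00837). Dancr differed by 0.36 (adjusted p = 0.169) and its arrays overlapped. In U against C, 0 were higher and 6 lower, led by Snhg5 at -2.66, Snhg16 at -1.80 and Zfas1 at -1.76, and the list median was -0.76 against -0.01 over all genes. In SCF against C, 0 were higher and 5 lower. Snhg5 differed by -1.57, Snhg16 by -1.17 and Zfas1 by -0.80. Zfas1 had a further detected probe, with 10.03 to 10.52 on SCF arrays and 10.07 to 10.36 on C arrays, which overlapped, so its 2 probes disagree on SCF against C. No other host of the list fell as far in U as Snhg12 did, and none was called higher there, as Gas5 was.

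**Figure D3:**
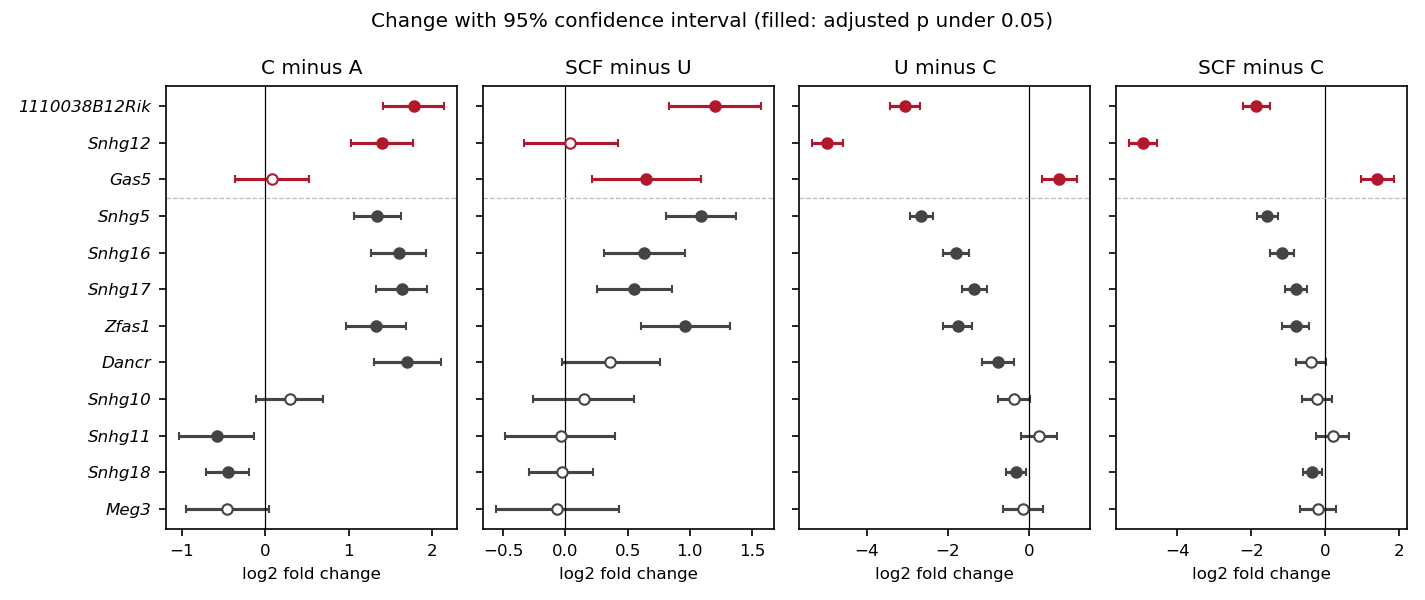
Log2 fold change (horizontal axes) with its 95% confidence interval for the 3 tested genes (red, above the dashed line) and the 9 other tested noncoding snoRNA hosts (dark) in the 4 comparisons, with filled points at an adjusted p under 0.05. In SCF minus U, 1110038B12Rik stands at 1.20 and Snhg5 at 1.09, and in U minus C Snhg12 stands at -4.98.

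Genes named for a snoRNA itself were looked up after the values had been seen. Of 4 such genes with a named probe, Snora65 and Snora70 were tested. Snora65 was higher in C than in A by 1.78 (adjusted p = 1.59e-08) and higher in SCF than in U by 0.45 (adjusted p = 0.0208). Snora70 was higher in C than in A by 0.95 (adjusted p = 0.000407) and differed by 0.30 between SCF and U (adjusted p = 0.250). Both were lower in U than in C, Snora65 by 4.86-fold and Snora70 by 2.10-fold. Neither lies inside one of the 7 genes, and a probe for such a name can read the host RNA as well.

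The genes of proteins that bind and mature snoRNAs were mostly higher in C than in A and in SCF than in U. Of 15 tested genes of the core particles and their assembly, 13 were higher in C than in A and 0 lower, with a median of 1.25. Of all genes, 29.6% were higher and 21.3% lower there. Nop58, a core protein of methylation-guiding particles, was higher by 1.69 (adjusted p = 6.73e-06) and Ruvbl2, an ATPase of the assembly complex, by 1.64 (adjusted p = 4.77e-08). In SCF against U, 12 of 15 were higher and 0 lower, with a median of 0.73, where 14.1% of all genes were higher and 13.7% lower. Ruvbl2 was higher by 1.30 (adjusted p = 5.96e-06), Nop56, the partner of Nop58, by 1.20 (adjusted p = 0.000843) and Nop58 by 1.09 (adjusted p = 0.00136). In U against C, 11 were lower and 1 higher, where 28.5% of all genes were called in each direction. Nop56 at -1.77 and Ruvbl2 at -1.71 fell most. In SCF against C, 2 were higher and 1 lower, where 24.6% of all genes were higher and 21.9% lower. The higher ones were Dkc1, the pseudouridine synthase, and Znhit6 by 0.64, while Ruvbl2 was lower by 1.33-fold. Dkc1 was higher by 2.17-fold with the C arrays set at their dimmest signals above background.

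Protein-coding genes can also carry snoRNAs in their introns. Of 27 tested, 18 were higher in C than in A and 0 lower, with Ppan, a ribosome biogenesis factor, at 1.73 (adjusted p = 2.52e-06), the ribosomal protein gene Rpl7a at 1.36 and Ncl, which encodes nucleolin, at 1.33. In SCF against U, 12 were higher and 0 lower, with Nop56 at 1.20, Rcc1 at 0.92 and Ncl at 0.87. Rcc1 is counted in this list, although RefSeq places Snora73a and Snora73b inside its neighbour Snhg3. In U against C, 16 were lower and 3 higher. Tpt1, which encodes translationally controlled tumour protein, was among the higher at 3.10 (adjusted p = 5.85e-11), and Ppan was lower at -2.40 (adjusted p = 4.19e-08). Tpt1 averaged 4.80 in C, close to the dimmest signals, so the size of its differences from C rests on dim readings. In SCF against C, 7 were lower and 4 higher, where 21.9% of all genes were lower and 24.6% higher, with Tpt1 at 3.21. With median scaling this balance turned, with 1 lower and 3 higher.

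TOP mRNAs outside the ribosome, 15 of them tested, gave 10 higher and 1 lower in C against A. Hnrnpa1, an RNA-binding protein of splicing, was higher by 1.36 and Npm1, the nucleolar phosphoprotein nucleophosmin, by 1.05. In SCF against U, 7 were higher and 0 lower, with the initiation factor Eif4b at 1.32 (adjusted p = 0.00120) and Npm1 at 0.83 (adjusted p = 0.00175). In U against C, 8 were lower and 3 higher, and in SCF against C, 3 were lower and 4 higher. Of all genes, 28.5% were called in each direction in U against C, and 24.6% higher and 21.9% lower in SCF against C. Among regulators of mTOR and of TOP translation, 17 tested, 7 were higher and 1 lower in C against A, where 29.6% of all genes were higher and 21.3% lower. With median scaling 12 were higher and 0 lower. Larp1, which binds the TOP motif, was higher by 1.38 in C against A (adjusted p = 5.20e-06) and was the 1 regulator called in SCF against U, at 0.74 (adjusted p = 0.00476). Ddit4, an inhibitor of mTOR, was higher in U than in C by 1.73 (adjusted p = 3.26e-06). Over this list 6 were higher and 8 lower in U against C, and 4 higher and 5 lower in SCF against C. The shares of all genes given above for these comparisons apply here too.

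Of 12 tested genes of nonsense-mediated decay, 4 were higher and 0 lower in C against A, where 29.6% of all genes were higher, and 11 were higher with median scaling. Of the 4, Nbas had the largest difference at 0.98 (adjusted p = 0.000209). In SCF against U, 1 was higher and 0 lower, the exon junction helicase Eif4a3 at 0.53 (adjusted p = 0.0186). In U against C, 0 were higher and 2 lower, and in SCF against C, 1 was higher and 0 lower.

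Growth arrest genes other than Gas5 were read as a list. Of 16 tested, 1 was higher and 10 lower in C against A, with a median of -0.84. Klf2, a quiescence factor of lymphocytes, stood at -2.84 (adjusted p = 1.51e-08), Gas7 at -2.33 (adjusted p = 8.43e-08) and the antiproliferative gene Btg1 at -2.04 (adjusted p = 6.49e-09). In SCF against U, 1 was higher and 3 lower, where 14.1% of all genes were higher and 13.7% lower. Gas6, the ligand of TAM receptors, stood at -1.81 (adjusted p = 5.20e-05), Klf2 at -1.22 (adjusted p = 0.000545) and Ddit3 at -0.79 (adjusted p = 0.00507), whereas Gas7 was higher at 0.65 (adjusted p = 0.0273), with arrays that overlapped. In U against C, 8 were higher and 4 lower, where 28.5% of all genes were called in each direction. Cdkn1a, which encodes the cell cycle inhibitor p21, was higher in U by 28.8-fold (adjusted p = 5.57e-13), Pmp22, also known as Gas3, by 18.4-fold (adjusted p = 1.32e-07) and Gas6 by 6.05-fold (adjusted p = 1.45e-07). In SCF against C, 5 were higher and 4 lower, where 24.6% of all genes were higher and 21.9% lower. Cdkn1a was higher there by 33.9-fold (adjusted p = 2.98e-13). Pmp22 was above background on 1 of 3 C arrays.

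**Figure D4:**
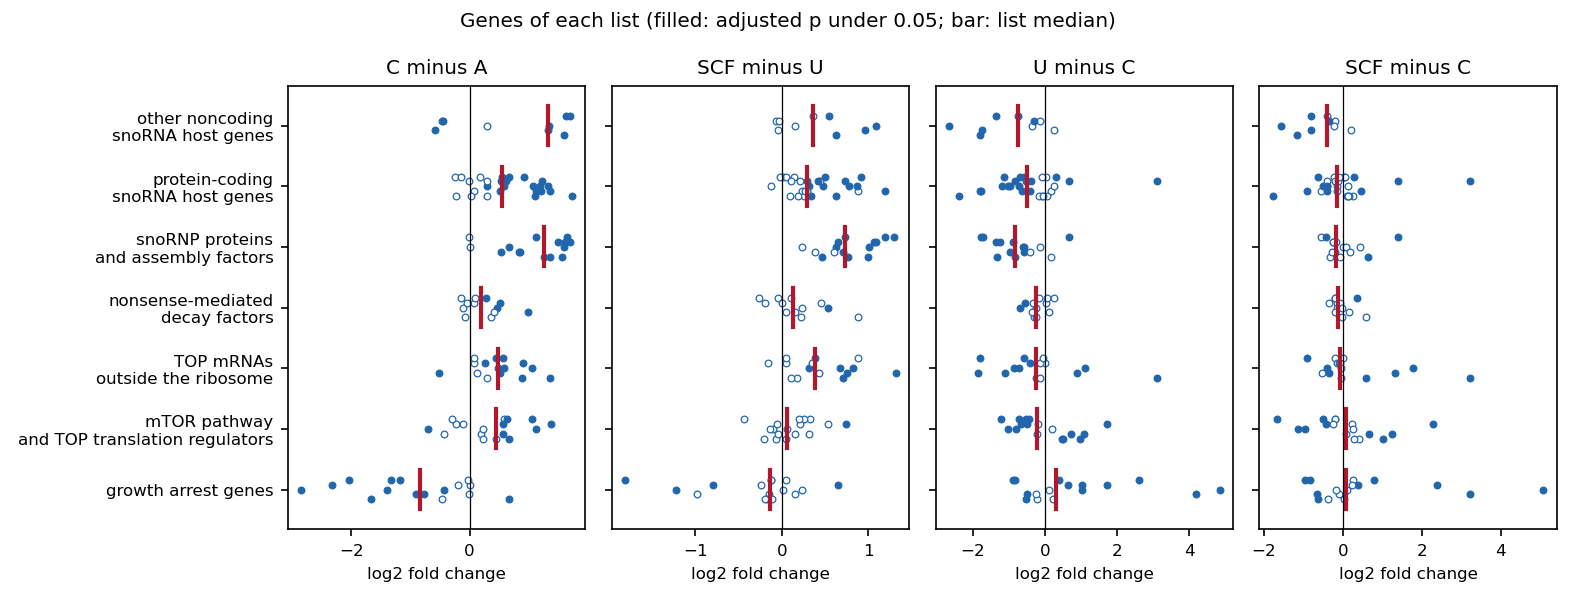
Log2 fold change (horizontal axes) of every tested gene of 7 gene lists in the 4 comparisons, with filled points at an adjusted p under 0.05 and the list median as a red bar. The snoRNP proteins have medians of 1.25 in C minus A and 0.73 in SCF minus U, and the growth arrest genes a median of -0.84 in C minus A.

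The genes beside the hosts were read as well. Wdr74, a ribosome biogenesis factor next to Snhg1, was higher in C than in A by 1.42 (adjusted p = 1.19e-07) and higher in SCF than in U by 0.74 (adjusted p = 0.000432). Slc3a2, the heavy chain of amino acid transporters on the other side of Snhg1, was higher in U than in C by 2.91 (adjusted p = 8.36e-10) and above background on 1 of 3 C arrays. Rcc1, the nuclear exchange factor of Ran that lies next to Snhg3, was higher in C than in A by 0.67 (adjusted p = 0.00997) and higher in SCF than in U by 0.92 (adjusted p = 0.00230). Trnau1ap, next to Snhg12, was higher in C than in A by 0.74 (adjusted p = 0.000473) but differed by 0.22 between U and C (adjusted p = 0.214), where Snhg12 differed by -4.98. Rab42 on the other side of Snhg12 differed by -0.30 between U and C (adjusted p = 0.0738). At 4.86 in U and 5.16 in C it was close to the dimmest signals, where a change shows little.

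Neu1, a lysosomal sialidase next to 1110038B12Rik, was lower in C than in A by 2.91-fold (adjusted p = 3.27e-07) and higher in U than in C by 2.46-fold (adjusted p = 1.79e-06), opposite in both to 1110038B12Rik. Hspa1b, an inducible heat shock protein gene on the other side, was higher in C than in A by 0.63 (adjusted p = 0.00629) but above background on 1 of 3 A arrays. Cenpl, a centromere protein gene next to Gas5, was higher in SCF than in U by 0.61 (adjusted p = 0.00385) and lower in U than in C by 2.22-fold (adjusted p = 2.84e-06). Phactr4 beside Snhg3, Sgk3 beside Snhg6 and Prss12 beside Snhg8 were not called in SCF against U. Prss12 was above background on 0 of 3 SCF and 2 of 3 U arrays.

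Cell make-up differed between the groups, and its part in the results was not tested. In bulk samples fewer cells of a type and less RNA per cell cannot be told apart. Of 8 neutrophil markers, 0 were higher and 7 lower in C than in A, while 8 were higher in U than in C, and the linear sum of their levels was 24337 to 27042 in SCF, 29028 to 31784 in U, 1630 to 3063 in C and 82355 to 94663 in A. Of 5 tested erythroid markers, 3 were lower and 1 higher in SCF than in U, with sums of 5119 to 5346 in SCF, 7606 to 10947 in U, 8905 to 9827 in C and 40236 to 41416 in A. Megakaryocyte markers summed to 17258 to 18259 in SCF, 37812 to 40540 in U, 5220 to 7932 in C and 2849 to 6757 in A, with 4 of 5 lower in SCF than in U. Markers of monocytes and macrophages summed to 2689 to 5923 in SCF, 6903 to 10533 in U, 966 to 1185 in C and 1852 to 2603 in A, with 3 of 5 lower in SCF than in U. Stem and progenitor markers summed to 4605 to 5241 in SCF, 3956 to 4731 in U, 5285 to 5783 in C and 776 to 1227 in A, and 4 of 4 were higher in C than in A. Eosinophil markers, 2 tested, summed to 1513 to 1641 in SCF, 10593 to 13084 in U, 17454 to 19279 in C and 20439 to 21296 in A, and both were lower in SCF than in U. B cell markers, 2 tested, summed to 282 to 341 in SCF, 341 to 418 in U, 468 to 614 in C and 5073 to 6684 in A, and both were lower in C than in A. Mast cell and basophil markers summed to 6870 to 9400 in SCF, 7801 to 8856 in U, 6654 to 7425 in C and 5838 to 6401 in A, with 4 of 5 higher in C than in A and a list median of 2.73 there. Markers of T and NK cells, 3 tested, summed to 1143 to 1605 in SCF, 708 to 1077 in U, 1992 to 2520 in C and 2649 to 3341 in A, with 2 lower and 1 higher in SCF than in U. Of the markers tested, Mmp8 was not above background in C and Ms4a2 not in A.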

How the data were processed

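RNA of 12 mouse bone marrow samples, 3 per title group, had been labelled and hybridized to Illumina arrays. The authors deposited linear scanner intensities, neither background-corrected nor normalized, beside a detection p-value of every probe on every array. They also deposited processed intensities, quantile normalized in 2 sets of arrays (C with A, U with SCF), which kept the order of the scanner values and served as an alternative. Array model and scanner software: not given in the sources used here, and the methods, headed as microarray analysis, also mention sequenced RNA, whereas the files hold array intensities.

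Of 45281 probes, 35784 had 1 gene symbol in the platform annotation and 9497 had none or several. Symbols were updated through the RefSeq gene table by gene ID (28620), accession (2637), current symbol (2128) or older symbol (2343), and 56 were kept as written. Background was removed by normexp, its distribution being inferred from the detection p-values, and all 12 arrays were quantile normalized together with an offset of 16 (neqc) and put on the log2 scale with limma 3.58.1 in R 4.3.3. A probe was kept where 3 or more arrays had it at a detection p under 0.05, and the brightest probe stood for each of 11472 genes. A linear model of the 4 groups (lmFit, 8 residual degrees of freedom) with trended eBayes gave the comparisons, adjusted over all genes by Benjamini-Hochberg and called below 0.05. With 0 arrays above background in a group, a fold was given against the lowest signal above background on its arrays. Such a fold makes no allowance for the spread of the other group. Replicate arrays shared equal raw values in at most 0.00221% of probes.

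The members and gene lists were chosen with earlier results of these data known. Named genes were all members, Kit, up to 3 called genes with the largest change of each list and comparison, the nearest genes on each side of a member, and the 3 genes closest in profile to each tested member; for the lists fewer are given where the rest add little. The fit was tested on simulated arrays. Tables and figures were made with Python 3.11.15, pandas 2.3.3 and matplotlib 3.10.9. Alternatives were other scalings, background corrections and filters, the authors' processed values, the mean of all probes, only the arrays compared, array weights, a replicate block and leaving out each array.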

Additional observations from a re-analysis of the deposited data

How the results depend on the processing

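Of 320 alternative values of the counts of genes and members called and of the 3 tested genes' log2 differences, 302 kept their direction and their side of the threshold or, for counts, stayed within 1.5 times. The count of members called in SCF against U was 1 in place of 2 in 8 alternatives, which are those where Gas5 lost its call. These were the sets normalized separately (log2 difference 0.72, adjusted p = 0.0695), the authors' processed values (0.27, adjusted p = 0.0611), no filter on detection (0.65, adjusted p = 0.0525), only the arrays compared (0.65, adjusted p = 0.0683) and leaving out U replicate 1, U replicate 2, SCF replicate 2 or SCF replicate 3 (0.42 to 0.67). By construction the unfiltered fit adjusts over more genes, and each of the other fits named here uses fewer arrays. The separately normalized sets and the authors' processed values were fitted on the SCF and U arrays alone. What else weakened the Gas5 call there was not tested. Leaving out 1 array at a time gave 1 to 2 members called in SCF against U, and 2445 to 3031 genes called there, 5087 to 5893 in C against A, 5865 to 6132 in U against C and 4546 to 5053 in SCF against C. The Snhg12 difference between SCF and U, not called, ranged over -0.12 to 0.13 when arrays were left out, with -0.12 without U replicate 1 (adjusted p = 0.704) and -0.02 without SCF replicate 2 (adjusted p = 0.956). Over the alternatives the called differences of 1110038B12Rik ranged over 1.64 to 2.47 in C against A, 0.98 to 1.43 in SCF against U, -3.31 to -2.72 in U against C and -1.93 to -1.58 in SCF against C. Those of Snhg12 ranged over 1.23 to 2.14 in C against A, -5.07 to -3.33 in U against C and -5.00 to -3.32 in SCF against C, and those of Gas5 over 0.24 to 0.99 in U against C and 0.47 to 1.65 in SCF against C.

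Scaling each array to its median gave 6001 genes higher and 1024 lower in C against A, against 3398 and 2448 with quantile normalization, and moved the median of all genes to 0.49. It gave 3878 higher and 1374 lower in SCF against C (2823 and 2514 with quantile normalization), where the median of all genes moved to 0.18, 3798 and 2420 in U against C (3274 and 3275) and 1891 and 1246 in SCF against U (1616 and 1568). Deviations of same-numbered arrays from their group means correlated between -0.08 and 0.01 for C and A and between -0.00 and 0.05 for SCF and U. For U and C they correlated between -0.19 and 0.21, and arrays of different number between -0.36 and 0.33. These values show no pairing by number, but with 3 arrays per group they cannot exclude it. With the replicate number as a block, 5786 genes were called in C against A, 3104 in SCF against U, 6499 in U against C and 5276 in SCF against C, and no call of a member changed. The authors' processed values and separately normalized sets were not run for U or SCF against C, which lie in different sets. Signal over background limits Gas5, Snhg1 and, on the SCF and U arrays, Snhg12, since an array probe near background shows little of a change.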
